A study of Saccharomyces cerevisiae with 35 samples.

Results

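The genes described here are 10 protein-coding reading frames of the yeast mitochondrial genome, chosen by name from a table of 6717 genes. They are 4 exon-coded genes (COX1, Q0045; COB, Q0105; ATP6, Q0085; OLI1, Q0130) and 6 reading frames that lie inside introns of COX1 (AI1, Q0050; AI2, Q0055; AI3, Q0060; AI4, Q0065) or of COB (BI2, Q0110; BI4, Q0120). The table has 28 features of the mitochondrial genome, and the other 18 were used only for the mitochondrial share of counts and for a few comparisons. RNA was sequenced from 4 diploid strains of Saccharomyces cerevisiae: the vineyard strain BC187, the West African strain NCYC3290, the North American oak strain YPS128 and the laboratory strain BY4743, which is homozygous for his3Δ1, leu2Δ0 and ura3Δ0 and heterozygous for lys2Δ0 and met15Δ0. Cells grew in rich medium (YPD) at 30 °C and were sampled before salt was added (unstressed) and 30 min and 3 h after 0.7 M NaCl. Each strain had 3 replicate cultures, except that YPS128 had 2 at 30 min, so 35 libraries were analysed; the YPS128 replicate 3 library at 3 h is shown as a value but was left out of the NaCl fit, because its culture has no 30 min library.

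The mitochondrial genome of yeast codes for a few subunits of the respiratory chain, and its long primary transcripts are cut and spliced into messenger RNAs. COX1 is subunit 1 of cytochrome c oxidase and COB is cytochrome b of the bc1 complex, while ATP6 and OLI1 (subunit 9) belong to the membrane part of the ATP synthase. COX1 and COB carry introns, and which introns are present is known to vary among yeast strains. AI1 and AI2 lie in group II introns and code for proteins with maturase and reverse transcriptase activity. AI3, AI4, BI2 and BI4 lie in group I introns and code for proteins related to homing endonucleases, of which the BI4 protein is a maturase known to be needed for splicing its own intron and that of AI4. An intron reading frame is usually continuous with the exon upstream, so a read inside it comes from a precursor or from an excised intron, while a read in an exon can come from either precursor or mature RNA.

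The boundary of each intron in the reference genome (S288c, R64) is shown because it marks where exon sequence ends and intron sequence begins. It does not divide the counts of host gene and frame. Each frame is annotated from the start of its host gene and shares the exons upstream of its intron. Each sequence is on the plus strand of the mitochondrial chromosome (chrMT), with the last 12 exon bases in capitals and the first 18 intron bases in lower case.
AI1, COX1 intron 1 at chrMT:13987-16434: AATTATTTAATGgtgcgcctctcagtgcgt
AI2, COX1 intron 2 at chrMT:16471-18953: TAATGATTTTCTgtgcgccgtttcgcttaa
AI3, COX1 intron 3 at chrMT:18992-20507: GGTTTTGGTAACcaaaaaagatatgaaagt
AI4, COX1 intron 4 at chrMT:20985-21994: TGATTCTTTGGTcaaacagtggcccttatt
BI2, COB intron 2 at chrMT:37737-39140: TCACATTGAGGTaatataaatatcgcctca
BI4, COB intron 4 at chrMT:41091-42507: AATACTTTAGGTcaaaatatggccttatta
Introns AI1 and AI2 begin with the same 5 bases, gtgcg. The introns of AI4 and BI4, which share the dependence on the BI4 maturase, both follow an exon that ends in GGT, as does that of BI2, and both begin with caaa, as does that of AI3. Their downstream ends, with 18 intron bases in lower case before 12 exon bases in capitals, were also read from the reference.
AI4, downstream end: atatatatatataacaagCACCCTGAAGTA
BI4, downstream end: ttatatttattataaaagCATCCTGATAAC
COX1 spans chrMT:13818-26701 and COB chrMT:36540-43647, whereas ATP6 (chrMT:28487-29266) and OLI1 (chrMT:46723-46953) have no intron. Because reading frames overlap in the annotation, 633 of the 1605 coding bases of COX1 and 402 of the 1158 coding bases of COB belong to that gene alone, and levels were expressed per kilobase of such bases wherever genes are compared.

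Library totals ran between 3629637 and 5866906 counts (median 4732586), so the floor of 3 counts below which a feature was treated as not detected was 0.827 to 0.511 CPM (counts scaled to a common library size); such floors cover counting error only. As a check of the labels, LEU2, which is deleted in the laboratory strain, had 209 to 1169 counts in the 26 libraries of the wild strains and 0 in all 9 BY4743 libraries. The library of BY4743 replicate 1 at 30 min stood apart from the other 34: it had the highest count of any library in 13 of the 28 mitochondrial features, including AI5_ALPHA (874 counts against at most 38) and VAR1 (673 against at most 19). Of the 10 genes described here, AI3 (385 against at most 353) and BI2 (196 against at most 150) were among those 13. For CPM, library sizes were scaled with the trimmed mean of M values (TMM), and a call means a Benjamini-Hochberg adjusted p under 0.05 in edgeR's quasi-likelihood test over all genes.

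The first question was which intron reading frames each strain expressed. The answer was largely all or nothing, and each strain had its own combination. AI1, a group II frame, had 0 counts in all 9 BC187 and all 8 YPS128 libraries, against 2817 to 6199 counts in NCYC3290 and 4839 to 7987 in BY4743. In unstressed cells it was therefore at least 1265-fold lower in BC187 than in NCYC3290, and at least 1902-fold lower than in BY4743, taking 3 counts per library as the floor. The same floor made it at least 1116-fold lower in YPS128 than in NCYC3290 and at least 1679-fold lower than in BY4743. AI2, the other group II frame, showed a different pattern, with 0 counts in all 9 NCYC3290 libraries. It had 2273 to 3516 counts in BC187, 2804 to 6917 in YPS128 and 3372 to 5279 in BY4743. Unstressed NCYC3290 was at least 944-fold below BC187, at least 1313-fold below YPS128 and at least 1333-fold below BY4743. AI1 and AI2 were thus both detected only in BY4743 among the 4 strains.

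Among the group I frames, AI4 had 0 counts in all 8 YPS128 libraries and 239 to 770 in BC187, 459 to 934 in NCYC3290 and 326 to 652 in BY4743. Unstressed YPS128 was at least 138-fold below BC187, at least 152-fold below NCYC3290 and at least 119-fold below BY4743. AI3 had 0 to 9 counts in YPS128, a sum of 20 over 8 libraries, of which 2 held more than 3 counts. The other strains had 178 to 328 AI3 counts in BC187, 104 to 256 in NCYC3290 and 206 to 385 in BY4743. BI2 had 0 to 4 counts in BC187 (sum 21) and 0 to 3 in NCYC3290 (sum 9), against 75 to 150 in YPS128 and 70 to 196 in BY4743. BI4 was the only one of the 6 detected in every library of every strain, with 204 to 587 counts in BC187, 256 to 691 in NCYC3290, 233 to 476 in YPS128 and 185 to 450 in BY4743. BY4743 alone had counts above the floor for all 6 frames, and it is also the strain closest to the reference to which all reads were mapped. A strain that lacks an intron and a strain whose intron differs too much in sequence for its reads to map cannot be told apart in these counts.

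**Figure D1:**
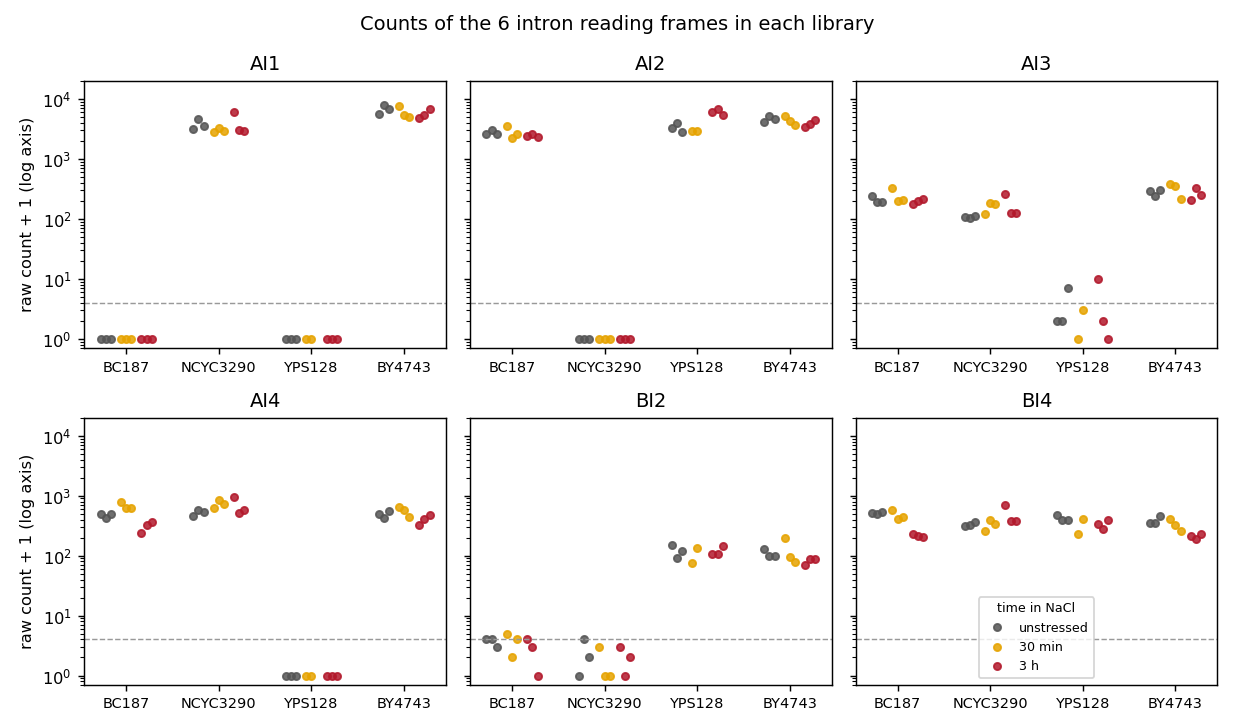
Counts of the 6 intron reading frames in each of the 35 libraries (raw counts plus 1, log axis), with strains along the horizontal axis and the 3 time points by colour; the dashed line is the floor of 3 counts. AI1 lies at 0 in BC187 and YPS128, AI2 at 0 in NCYC3290 and AI4 at 0 in YPS128, whereas BI4 lies between 185 and 691 counts in every library.

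The second question was how the levels differed between strains before salt. COX1 and COB were higher in YPS128 and in NCYC3290 than in BY4743, while the intron frames were higher, lower or not called there. COX1 had 446, 462 and 407 CPM in the BC187 cultures, 646, 908 and 558 CPM in NCYC3290, 999.9, 1019 and 867 CPM in YPS128, and 373, 393 and 341 CPM in BY4743. All BC187, NCYC3290 and YPS128 values were above those of BY4743, and YPS128 overlapped only with the highest NCYC3290 culture. In edgeR, COX1 was higher by 1.37 ± 0.10 (log2, SE) in YPS128 than in BY4743 (adjusted p = 1.30e-12) and by 0.90 ± 0.10 in NCYC3290 (adjusted p = 9.35e-09), while the difference of 0.22 ± 0.10 for BC187 was not called (adjusted p = 0.0678). COB had 373, 385 and 267 CPM in BC187, 439, 499.9 and 335 CPM in NCYC3290, 604, 639 and 465 CPM in YPS128 and 287.7, 313 and 210.1 CPM in BY4743. The order of the strain means was the same as for COX1, but neighbouring strains overlapped. Relative to BY4743, COB was higher by 1.07 ± 0.08 in YPS128, by 0.64 ± 0.08 in NCYC3290 and by 0.31 ± 0.08 in BC187, the last with an edgeR adjusted p of 0.00396, 0.0886 without replicate 1 and 0.359 without the replicate block. Of the 10 genes, 6 were called between BC187 and BY4743 (all genes: 40.7%), 8 between NCYC3290 and BY4743 (40.6%) and 8 between YPS128 and BY4743 (49.1%). These counts include frames with few or no counts in the wild strain, whose calls follow from detection. Those were AI1 and BI2 in BC187, AI2 and BI2 in NCYC3290, and AI1, AI3 and AI4 in YPS128. Of the 4 exon genes alone, 2, 3 and 3 were called in these pairs.

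The ATP synthase genes did not share the gradient of COX1 and COB. ATP6 had 109, 96.3 and 89.8 CPM in BC187, 90.3, 153 and 87.3 CPM in NCYC3290, 156, 166 and 155 CPM in YPS128 and 171, 173 and 117 CPM in BY4743. All BC187 values lay below all BY4743 values, while the other strains overlapped with BY4743. ATP6 was lower in BC187 than in BY4743 by a log2 difference of -0.65 ± 0.15 (edgeR adjusted p = 0.00244) and in NCYC3290 by -0.51 ± 0.15 (adjusted p = 0.0117; 0.123 without replicate 1 and 0.114 without the replicate block), whereas YPS128 differed by 0.05 ± 0.14 (adjusted p = 0.783). OLI1 had 396, 304 and 346 CPM in BC187, 358, 408 and 258 CPM in NCYC3290, 620.4, 529 and 482 CPM in YPS128 and 391, 428 and 208 CPM in BY4743. The 3 YPS128 values lay above all others, and the difference from BY4743 was 0.69 ± 0.21 (edgeR adjusted p = 0.0289), which was not called on library totals without TMM (0.44, adjusted p = 0.112), without replicate 1 (0.68, adjusted p = 0.113) or without the replicate block (adjusted p = 0.0587).

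**Figure D2:**
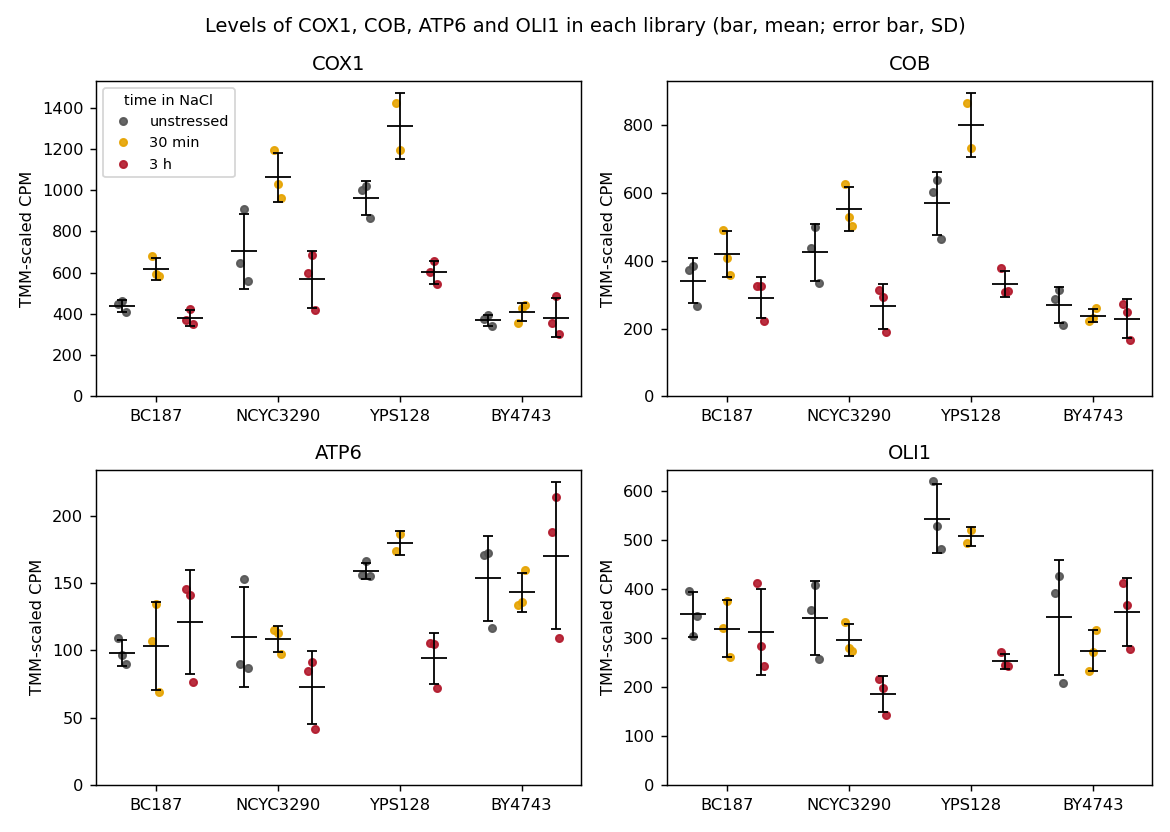
TMM-scaled CPM of COX1, COB, ATP6 and OLI1 by strain and time point; points are libraries, bars are means and error bars are SD (n = 3, and n = 2 for YPS128 at 30 min). In unstressed cells YPS128 has the highest mean for COX1 (962 CPM) and BY4743 the lowest (369 CPM).

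Among the intron frames, AI1 was lower in NCYC3290 than in BY4743 (log2 difference -0.64 ± 0.09, edgeR adjusted p = 2.39e-06, 0.130 without the replicate block) although its host gene COX1 was higher there. AI3 was lower in NCYC3290 than in BY4743 by -1.15 ± 0.14 (adjusted p = 1.09e-07), and BC187 was above NCYC3290 by 0.95 ± 0.14 (all genes in that pair: 29.3%). BI4 was higher than in BY4743 by 0.66 ± 0.10 in BC187 and by 0.56 ± 0.10 in YPS128, but not in NCYC3290 (0.03 ± 0.10, edgeR adjusted p = 0.805), which was below YPS128 by -0.52 ± 0.10 (all genes in that pair: 31.9%). AI2 was lower in BC187 than in BY4743 by -0.55 ± 0.09 and lower than in YPS128 by -0.48 ± 0.09 (all genes in that pair: 32.9%), and neither call held without the replicate block (adjusted p = 0.164 and 0.232). AI4 differed from BY4743 by 0.17 ± 0.11 in BC187 and 0.30 ± 0.11 in NCYC3290, and the second of these was called (adjusted p = 0.0333) but not without replicate 2 (0.10, adjusted p = 0.531), without the replicate block (0.33, adjusted p = 0.226) or on library totals (adjusted p = 0.0598). BI2 was higher in YPS128 than in BY4743 by 0.52 ± 0.17 (edgeR adjusted p = 0.0118). This BI2 call was lost without replicate 3 (0.32, adjusted p = 0.192), without the replicate block (adjusted p = 0.110) and on library totals (0.27, adjusted p = 0.185). It was also lost in DESeq2's Wald test (adjusted p = 0.354) and in the edgeR fit to 34 libraries (adjusted p = 0.0871).

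Per kilobase of own bases, the level of a frame relative to its host gene differed widely between frames. In unstressed BY4743 the ratio to COX1 was 0.968 ± 0.1801 for AI1 and 0.661 ± 0.0830 for AI2, both group II, and 0.0915 ± 0.00849 for AI3 and 0.171 ± 0.0153 for AI4, both group I (SD, n = 3). The ratio to COB was 0.0378 ± 0.00525 for BI2 and 0.0971 ± 0.0269 for BI4. In NCYC3290 the ratio was 0.334 ± 0.0462 for AI1, 0.0224 ± 0.00300 for AI3 and 0.114 ± 0.0116 for AI4, each below BY4743 with no overlap between the 3 cultures of each strain. The AI2 ratio was 0.393 ± 0.0948 in BC187 and 0.249 ± 0.0732 in YPS128, both below BY4743. For BI4 the ratio was 0.123 ± 0.0214 in BC187, 0.0632 ± 0.0107 in NCYC3290 and 0.0674 ± 0.00983 in YPS128. All reads were mapped to S288c, so reads lost from a diverged intron would lower the level and the ratio of a frame in a wild strain. Such a loss and less intron RNA cannot be told apart in these comparisons between strains. Between frames, base composition in the reference moved with some of these ratios. The own bases of AI1 and AI2 held 24.7% and 26.4% G and C, against 17.1% to 19.7% in AI3, AI4, BI2 and BI4. The part of base composition in the ratios was not tested.

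The main question of the design was how salt changed these transcripts. As a summed share of all counts, the mitochondrial features changed over all cultures by less than the spread between cultures. The 28 mitochondrial features took 0.247% ± 0.0147, 0.260% ± 0.0328 and 0.237% ± 0.0100 of counts in BC187 before salt, at 30 min and at 3 h (SD, n = 3). The shares in the same order were 0.290% ± 0.0444, 0.317% ± 0.0160 and 0.298% ± 0.0527 in NCYC3290, 0.404% ± 0.0178, 0.376% ± 0.0191 and 0.402% ± 0.0247 in YPS128, and 0.412% ± 0.0365, 0.470% ± 0.0373 and 0.422% ± 0.0311 in BY4743. Over the 11 cultures with all 3 time points, the log2 share changed by 0.08 ± 0.17 (SD) at 30 min, higher in 7 and lower in 4 (exact two-sided sign-flip permutation p = 0.154), and by 0.01 ± 0.15 at 3 h (exact p = 0.927). The strains differed in direction at 30 min, with the share higher in all 3 BY4743 cultures (0.19 ± 0.13) and lower in both YPS128 cultures (-0.13 ± 0.13), which 3 cultures or fewer do not allow to be tested within a strain. The sum of COX1, COB, ATP6 and OLI1 alone, also as a share of all counts, was higher by 0.26 at 30 min (exact permutation p = 0.00391) and by 0.09 at 3 h (exact p = 0.0205). This sum leaves out COX2 and COX3, and its members did not move together. On the TMM scale, mean OLI1 was lower at 30 min than unstressed in each strain. It had 319 against 349 CPM in BC187, 295 against 341 in NCYC3290, 508 against 544 in YPS128 and 274 against 342 in BY4743, none of them called. With TMM-scaled library sizes as the denominator, the share of all 28 features at 3 h was instead lower by -0.43 (exact p = 0.00195). These permutation tests treat cultures as independent, although same-numbered cultures of the strains were grown in parallel, so their p-values can be too small. In bulk RNA, fewer mitochondrial genomes per cell and less RNA per genome cannot be told apart. The 3 h directions below depend on this scaling: replacing TMM by library totals raised the median of all genes by 0.26 in BC187, 0.58 in NCYC3290, 0.76 in YPS128 and 0.15 in BY4743, and at 30 min moved it by 0.03, -0.01, -0.11 and 0.29 in the same strains.

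At 30 min of NaCl, COX1 and the AI4 frame rose in BC187 and NCYC3290, and none of the 10 genes was called lower in any strain. COX1 had 680.3, 591 and 583 CPM at 30 min in BC187, against 446, 462 and 407 CPM unstressed. In NCYC3290 it had 1193, 1031 and 963 CPM at 30 min, against 646, 908 and 558 CPM. The groups did not overlap in either strain, and the log2 changes were 0.50 ± 0.16 (edgeR adjusted p = 0.0144) and 0.63 ± 0.16 (adjusted p = 0.00285). AI4 had 174, 145 and 142.3 CPM at 30 min in BC187, against 102, 121 and 104 CPM unstressed, a change of 0.50 ± 0.15 (edgeR adjusted p = 0.00879). It had 177, 192 and 167 CPM at 30 min in NCYC3290, against 99.2, 155 and 104.99 CPM unstressed, a change of 0.61 ± 0.15 (edgeR adjusted p = 0.00226). AI3 (0.70 ± 0.24, adjusted p = 0.0251) and COB (0.42 ± 0.15, adjusted p = 0.0393) also rose in NCYC3290. In all, 2 of 9 genes were called in BC187 (all genes: 34%) and 4 of 8 in NCYC3290 (27.3%), counting those above the floor in the strain. edgeR called 0 of 8 in YPS128 (14.4%) and 0 of 10 in BY4743 (62.6%), as did DESeq2, with 2 and 0 genes at an unadjusted p under 0.05. In YPS128 COX1 had 1423 and 1196 CPM at 30 min, and its change of 0.38 was not called (edgeR adjusted p = 0.161). None of the 30 min calls in BC187 and NCYC3290 held without replicate 1, where COX1 changed by 0.40 (adjusted p = 0.222) and 0.44 (adjusted p = 0.212), or without replicate 3, where it changed by 0.45 (adjusted p = 0.0707) and 0.50 (adjusted p = 0.0589). In BY4743, COB (-0.48), ATP6 (-0.42) and OLI1 (-0.77) were called lower without replicate 3, and COX1 (0.40) and AI4 (0.49) higher on library totals.

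At 3 h the BI4 frame fell in BC187, YPS128 and BY4743 on the TMM scale, and it did not fall in NCYC3290. BI4 had 54.4, 46.5 and 42.6 CPM at 3 h in BC187, against 109, 138 and 111 CPM unstressed. In BY4743 it had 51.0, 37.4 and 33.3 CPM at 3 h, against 68.5, 73.0 and 77.7 CPM unstressed. In YPS128 the 3 h values were 60.01, 44.6 and 53.8 CPM, against 102, 121 and 104.7 CPM unstressed. The groups did not overlap in any of these 3 strains, and the log2 changes were -1.30 ± 0.16 in BC187 (edgeR adjusted p = 7.89e-08), -1.08 ± 0.19 in YPS128 (adjusted p = 9.39e-06) and -0.84 ± 0.16 in BY4743 (adjusted p = 8.56e-05). NCYC3290 had 85.4, 70.8 and 58.2 CPM at 3 h, against 68.0, 88.2 and 72.3 CPM unstressed, and the groups overlapped (-0.08 ± 0.16, adjusted p = 0.689). On library totals the fall was -1.04 in BC187 (adjusted p = 1.33e-05) and -0.70 in BY4743 (adjusted p = 0.00164), it was not called in YPS128 (-0.31, adjusted p = 0.152), and BI4 was higher by 0.50 in NCYC3290 (adjusted p = 0.0121). Leaving out any replicate number kept the 3 TMM calls.

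The other frames and genes at 3 h split by strain. AI1 and AI2, the most abundant frames, changed by -0.26 and -0.27 in BY4743 and AI2 by -0.22 in BC187, and none of these changes was called. In BC187 AI4 also fell, with 56.8, 72.0 and 75.4 CPM at 3 h against 102, 121 and 104 CPM unstressed (-0.66 ± 0.15, edgeR adjusted p = 0.000507), and on library totals this change was -0.38 and not called (adjusted p = 0.0575), while ATP6 was called higher (0.51, adjusted p = 0.0238). Of 8 genes above the floor, 2 were called in BC187 (all genes: 54.6%), 4 in NCYC3290 (59.8%) and 6 in YPS128 (63.2%), against 1 of 10 in BY4743 (44.2%), each of them lower at 3 h. In YPS128 OLI1 had 271, 245 and 244 CPM at 3 h, against 620.4, 529 and 482 CPM unstressed, a change of -1.16 ± 0.22 (edgeR adjusted p = 4.33e-05). The other YPS128 calls were COX1 (-0.66 ± 0.18), COB (-0.83 ± 0.18), ATP6 (-0.74 ± 0.23), BI2 (-0.87 ± 0.27) and BI4. In NCYC3290 the calls were COB (-0.67 ± 0.15), OLI1 (-0.86 ± 0.19), ATP6 (-0.61 ± 0.20) and AI1 (-0.53), of which AI1 was lost without replicate 2 (-0.20, adjusted p = 0.465) or replicate 3 (-0.56, adjusted p = 0.102) and ATP6 without replicate 2 (-0.56, adjusted p = 0.0702). Without replicate 1, COX1 in YPS128 had an adjusted p of 0.0561 (-0.70). On library totals none of these YPS128 and NCYC3290 falls was called: COX1 and ATP6 in YPS128 and AI1 in NCYC3290 changed sign, and COX1 in NCYC3290, not called with TMM (-0.30), was called higher (0.28). AI2 went the other way in YPS128: it took 5366 to 6917 counts per library at 3 h, against 2804 to 4039 unstressed, a rise of 1.05 on library totals (adjusted p = 1.23e-05) that was not called with TMM (0.26).

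From 30 min to 3 h, the called changes were falls in every strain on the TMM scale with no replicate number left out. In BC187 4 genes were called (all genes: 52.4%), each lower: BI4 (-1.21), AI4 (-1.16), COX1 (-0.70) and COB (-0.52). In NCYC3290 6 were called (54.7%), led by COB (-1.09) and COX1 (-0.93), and in YPS128 6 (55.8%), led by COB (-1.20), BI4 (-1.05) and COX1 (-1.04). In BY4743 the 2 called (49.1%) were BI4 (-0.65) and AI4 (-0.49). Without replicate 3 neither was called in BY4743 (BI4 -0.49, edgeR adjusted p = 0.0745, and AI4 -0.40, adjusted p = 0.114). ATP6 (0.63, adjusted p = 0.00696) and OLI1 (0.68, adjusted p = 0.00581) were then called higher in BY4743, still on the TMM scale. On library totals the directions were mixed: ATP6 in BC187 (0.45, adjusted p = 0.0470), BI4 in NCYC3290 (0.42, adjusted p = 0.0341) and AI2 in YPS128 (0.97, adjusted p = 0.000111) were called higher. The falls still called there were COX1, AI4, COB and BI4 in BC187, COX1 and COB in NCYC3290, and COB in YPS128. In BY4743 all 4 genes called on library totals were lower: BI4 (-0.79), BI2 (-0.68), AI4 (-0.63) and AI2 (-0.37).

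**Figure D3:**
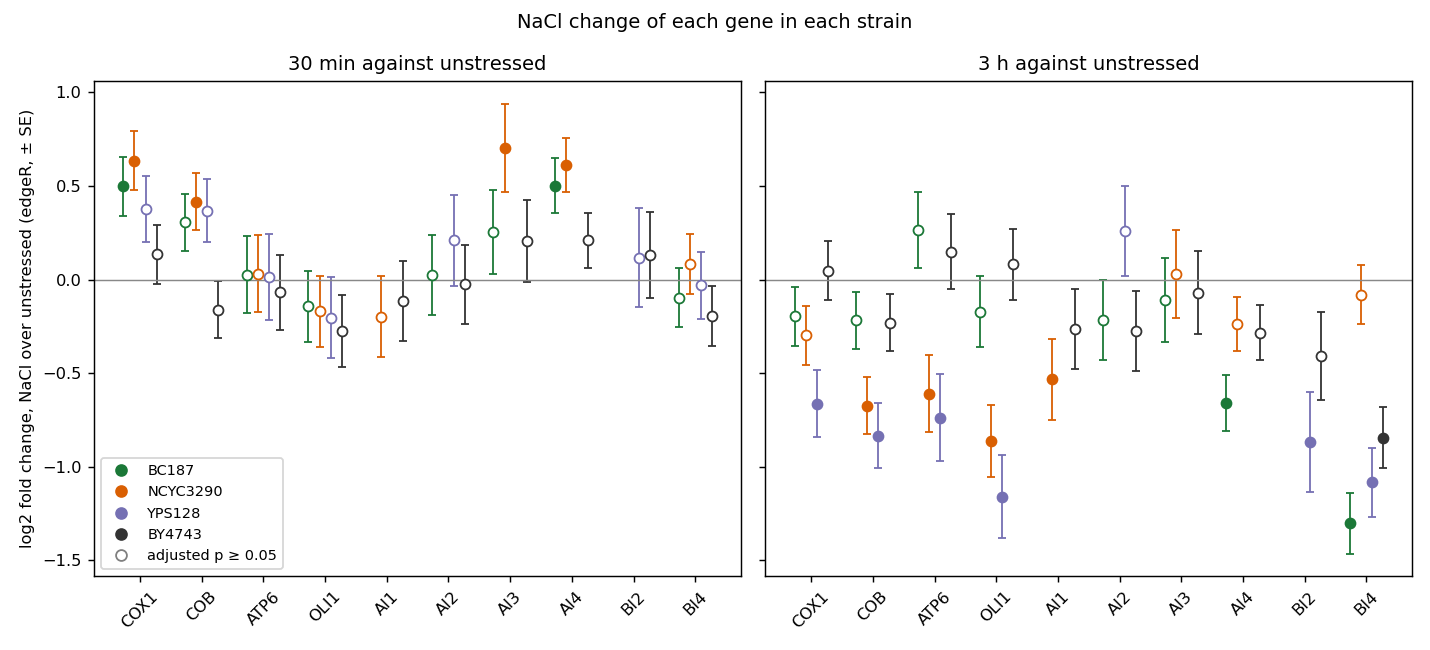
Log2 change of each gene at 30 min and at 3 h relative to unstressed cells in each strain (edgeR, TMM scale, error bars are SE; filled points have an adjusted p under 0.05), for strains in which every library had at least 10 counts of the gene. At 3 h BI4 lies at -1.30 in BC187, -1.08 in YPS128 and -0.84 in BY4743, and at -0.08 in NCYC3290, where library totals gave 0.50.

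The responses of the strains were compared directly. BI4 at 3 h differed between BC187 and NCYC3290 by -1.22 (edgeR adjusted p = 0.000703, all genes: 5.42%), and this call held under every alternative run. The NCYC3290 response of BI4 was also above the mean of the 4 strains by 0.75 (adjusted p = 0.000995, all genes: 3.54%), again under every alternative. Against BY4743 the NCYC3290 response was higher by 0.76 (adjusted p = 0.0210, all genes: 15.3%), and against YPS128 by 1.002 (all genes: 5.07%), but these 2 calls were each lost without any 1 of the replicates (adjusted p up to 0.208). OLI1 responded lower in YPS128 than in BY4743 by -1.24 at 3 h (edgeR adjusted p = 0.00160, all genes: 30%), a call lost only without replicate 1 (-1.25, adjusted p = 0.0580). Further calls stood on OLI1 or BI4 in BC187 (5.64%), YPS128 (24.1%) and BY4743 (22.6%) at 3 h and on COB in BY4743 at 30 min (45.9%), each against the mean of the strains, on COB between NCYC3290 and BY4743 at 30 min (36.1%), and on ATP6 and OLI1 between BC187 and YPS128 at 3 h (19.9%). None of these further calls held without replicate 1 or without the replicate block. On library totals the BI4 call in BC187 held (-0.65, adjusted p = 0.00843) and the others were lost, with adjusted p between 0.0877 and 0.175. These comparisons share libraries and are not independent of each other.

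Since the ratio of an intron frame to its host gene is taken within a library, it does not depend on scaling. The BI4 to COB ratio at 3 h was 0.0580 ± 0.00856 in BC187, against 0.123 ± 0.0214 unstressed (SD, n = 3), a log2 change of -1.08 ± 0.26 with all 3 cultures lower. In NCYC3290 it was 0.0948 ± 0.0114 at 3 h, against 0.0632 ± 0.0107 unstressed, a change of 0.59 ± 0.19 with all 3 cultures higher. In BY4743 it was 0.0624 ± 0.00911, against 0.0971 ± 0.0269, a change of -0.62 ± 0.26 with all 3 lower, and in YPS128 it was 0.0552 ± 0.00497, against 0.0674 ± 0.00983, a change of -0.24 ± 0.21 in the 2 cultures of the fit. Over all 11 cultures the change was -0.34 ± 0.70 at 3 h, lower in 8 (exact two-sided sign-flip permutation p = 0.136, adjusted over 12 tests 0.338), and -0.27 ± 0.32 at 30 min, lower in 9 (exact p = 0.0225, adjusted 0.270). With 3 cultures a strain, the strains were not tested one by one.

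The AI4 to COX1 ratio at 3 h was lower in all 3 cultures of BC187 (-0.47 ± 0.20) and of BY4743 (-0.32 ± 0.10), and changed by 0.06 ± 0.31 in NCYC3290. Over the 9 cultures the change was -0.24 ± 0.31, lower in 7 (exact permutation p = 0.0508, adjusted 0.305). The AI1 ratio at 30 min changed by -0.81 ± 0.15 in NCYC3290 and by -0.24 ± 0.48 in BY4743, together lower in 5 of 6 cultures (exact permutation p = 0.0938, adjusted 0.338). The AI2 ratio in YPS128 was 0.433 ± 0.0604 at 3 h, against 0.249 ± 0.0732 unstressed (n = 3), with no overlap. In the other strains with AI2 the ratio at 3 h was 0.386 ± 0.0325 in BC187, against 0.393 ± 0.0948 unstressed, and changed by -0.30 ± 0.43 (log2) in BY4743, and over all 8 cultures the log2 change was 0.11 ± 0.65 (exact permutation p = 0.672, adjusted 0.707). None of the 12 tests of a ratio passed after adjustment, and 1 of 12 had an unadjusted exact p under 0.05.

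**Figure D4:**
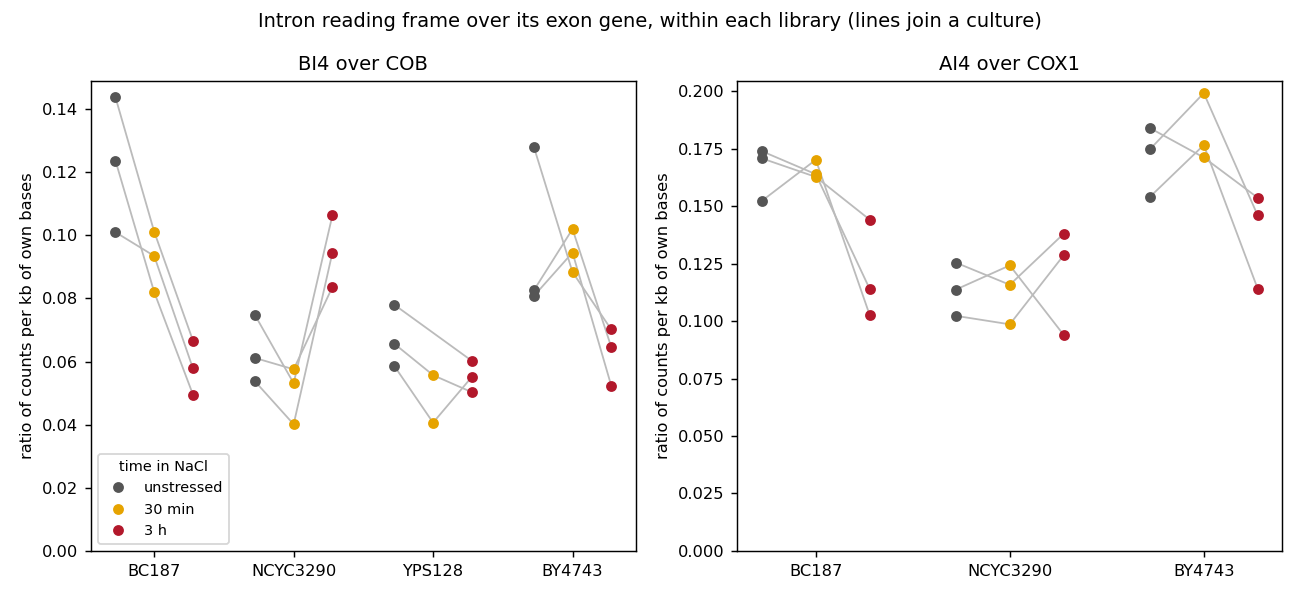
Ratio of BI4 to COB and of AI4 to COX1 (counts per kilobase of own bases) at the 3 time points in each strain; points are libraries and lines join libraries of a culture. The BI4 ratio at 3 h is below the unstressed ratio in all 3 cultures of BC187 and of BY4743, and above it in all 3 cultures of NCYC3290.

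Nuclear genes that act on these transcripts were taken from lists made by known function. Of 9 splicing factors, the numbers called higher and lower at 3 h were 1 and 1 in BC187 (all genes called in either direction: 54.6%), 2 and 1 in NCYC3290 (59.8%), 2 and 3 in YPS128 (63.2%), and 1 and 0 in BY4743 (44.2%). PET54, which acts in COX1 intron splicing and COX3 translation, rose in all 4 strains at 3 h (0.49, 0.76, 0.80 and 0.77 in BC187, NCYC3290, YPS128 and BY4743). MSS116, an RNA helicase of mitochondrial splicing, fell at 3 h in BC187 (-0.64), NCYC3290 (-0.62) and YPS128 (-0.95) and was at -0.55 in BY4743 (edgeR adjusted p = 0.0518). NAM2, the mitochondrial leucyl-tRNA synthetase that works with the BI4 maturase, changed at 3 h by 0.03 in BC187, -0.05 in NCYC3290, -0.19 in YPS128 and 0.40 in BY4743, none of them called. At 30 min, 1 of the 9 factors was called higher and 4 lower in BC187 (all genes: 34%). The numbers higher and lower were 1 and 2 in NCYC3290 (27.3%), 1 and 0 in YPS128 (14.4%), and 3 and 1 in BY4743 (62.6%). NAM2 was among the lower factors in BC187 (-0.98, edgeR adjusted p = 0.000262) and NCYC3290 (-0.65, adjusted p = 0.0120). It was not called in YPS128 (-0.07) or BY4743 (-0.17). MSS18, also in this list, was called higher at 30 min in BC187 (1.47), NCYC3290 (0.84), YPS128 (1.002) and BY4743 (0.97). ATP22, the translational activator of ATP6 and listed among 15 activators, rose at 3 h in all 4 strains (1.08, 1.09, 1.66 and 0.60 in BC187, NCYC3290, YPS128 and BY4743).

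Nuclear subunits of the complexes that hold these proteins moved differently from strain to strain at 3 h, when 54.6% of all genes were called in BC187, 59.8% in NCYC3290, 63.2% in YPS128 and 44.2% in BY4743. Of 9 subunits of cytochrome c oxidase, 7 rose and 0 fell in BC187, 1 rose and 2 fell in NCYC3290, 1 rose and 8 fell in YPS128, and 7 rose and 0 fell in BY4743. Their median log2 changes were 0.61, -0.09, -1.04 and 0.63 in those strains, against 0.04 to 0.09 over all genes. COX5B, the subunit isoform known to replace COX5A at low oxygen, rose in all 4 strains by 1.92, 2.01, 2.51 and 2.29. For the ATP synthase, 1 of 13 rose and 1 fell in BC187, 0 rose and 8 fell in NCYC3290, 0 rose and 13 fell in YPS128, and 10 rose and 0 fell in BY4743. For the bc1 complex, 8 of 9 rose in BC187, 1 rose in NCYC3290, 5 fell in YPS128 and 8 rose in BY4743. The YPS128 and NCYC3290 values carry the scaling shift given above.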

How the data were processed

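Strand-specific libraries from ribosomal RNA-depleted total RNA (Ribo-Zero, TruSeq Stranded Total RNA) were sequenced as single reads. The authors trimmed reads with Trimmomatic, mapped them with bwa-mem to the S288c genome (R64) and counted them per gene with HT-Seq, and they deposited a table of raw counts. The HT-Seq settings for strand, overlapping features and multiply mapped reads are not given in the sources used here, which leaves the counts of overlapping reading frames uncertain, and reads of diverged strains can fail to map to S288c. Of windows of 100 bases in own coding bases, all were unique in the genome for each of the 10 genes except BI4 (87.9%).

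Differential tests ran on these counts in edgeR 4.0.16 under R 4.3.3 (filterByExpr, TMM, robust quasi-likelihood test, Benjamini-Hochberg over all tested genes). The model held strain-by-time group and the replicate number as a block, since strains were grown in parallel per replicate. NaCl contrasts used 34 libraries and 5997 genes, and unstressed contrasts 12 libraries and 5644 genes; all 10 genes passed both filters. Replicates are separate cultures. Deviations from group means of same-numbered libraries correlated above 0.1 in 18 of 18 strain pairs unstressed, 5 of 15 at 30 min and 12 of 15 at 3 h. Biological coefficients of variation were 15.8% and 8.50%. Shares and ratios (prior of 0.5 counts, strains with at least 10 counts in every library) were tested with exact sign-flip permutation tests over cultures in numpy 2.4.6. These tests do not model the replicate number that parallel cultures of the strains share. On simulated data edgeR recovered 199 of 200 changed genes for BY4743 at 30 min (3.40% false, 5860 genes) and 200 of 200 for BC187 against BY4743 (2.91% false, 5578 genes). Alternatives were library totals, DESeq2 1.42.0 size factors and Wald test, scaling without mitochondrial features, no filter, other blocks, all 35 libraries, replicates left out, and, chosen after seeing the data, no BY4743 replicate 1 at 30 min and unstressed contrasts in the fit to 34 libraries.

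All 10 genes are named. Other mitochondrial genes are named where they averaged at least 100 counts. From each list of nuclear genes, at most 2 are named: those with the largest mean change at 3 h among genes called in the same direction in all 4 strains. MSS116, MSS18, NAM2 and the features of the library that stood apart were named after their values were seen. The genes and lists were chosen with earlier results of these data known.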

Additional observations from a re-analysis of the deposited data

Results flagged for a closer look

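For 16 results the response to NaCl differed between strains in a direct edgeR test (log2 differences with adjusted p). Against the mean response of the 4 strains, BI4 at 3 h was lower in BC187 (-0.47, adjusted p = 0.0425) and higher in NCYC3290 (0.75, adjusted p = 0.000995). OLI1 at 3 h was lower in YPS128 (-0.63, adjusted p = 0.0117, all genes: 24.1%) and higher in BY4743 (0.61, adjusted p = 0.00863, all genes: 22.6%), and COB at 30 min was lower in BY4743 (-0.39, adjusted p = 0.0174, all genes: 45.9%). The background for the BC187 response at 3 h was 5.64%.

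Between pairs of strains, NCYC3290 differed from BY4743 in COB at 30 min (0.58, adjusted p = 0.0364, all genes: 36.1%), and at 3 h in BI4 (0.76, adjusted p = 0.0210) and OLI1 (-0.94, adjusted p = 0.0161). YPS128 differed from BY4743 at 3 h in COX1 (-0.71, adjusted p = 0.0243), COB (-0.60, adjusted p = 0.0467), ATP6 (-0.89, adjusted p = 0.0276) and OLI1 (-1.24, adjusted p = 0.00160). BC187 differed at 3 h from NCYC3290 in BI4 (-1.22, adjusted p = 0.000703) and from YPS128 in ATP6 (1.003, adjusted p = 0.0203) and OLI1 (0.99), against 19.9% of all genes for this last pair. NCYC3290 differed from YPS128 at 3 h in BI4 (1.002).

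Of these, BI4 between BC187 and NCYC3290 and BI4 in NCYC3290 against the mean were called under every alternative. Without replicate 1 the other 14 were not called. Without the replicate block 11 were lost, and on library totals 11 were lost, including between YPS128 and BY4743 COX1 (-0.09, adjusted p = 0.692), COB (0.018, adjusted p = 0.935) and ATP6 (-0.27, adjusted p = 0.429), and between BC187 and YPS128 OLI1 (0.49, adjusted p = 0.151). Without BY4743 replicate 1 at 30 min, the COB results at 30 min were -0.26 in BY4743 against the mean (adjusted p = 0.159) and 0.39 between NCYC3290 and BY4743 (adjusted p = 0.188).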

How the results depend on the processing

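Scaling mattered most at 3 h. On library totals without TMM, 8 results that were called with at least 1 of these scalings changed sign: NCYC3290 at 3 h COX1 (0.28), AI1 (0.056) and BI4 (0.50), YPS128 at 3 h COX1 (0.10) and ATP6 (0.012), BI4 in NCYC3290 (0.42) and ATP6 in YPS128 (0.12) from 30 min to 3 h, and the COB response of YPS128 minus BY4743 (0.018). The 3 h mitochondrial share on TMM-scaled sizes was -0.43, and the share of the 4 exon genes was 0.26 at 30 min and 0.091 at 3 h. The numbers of genes called on library totals were 2 at 3 h in NCYC3290, 1 in YPS128, 2 at 30 min in BY4743, 3, 2 and 4 from 30 min to 3 h in NCYC3290, YPS128 and BY4743, and 0 for the responses of YPS128 at 3 h and BY4743 at both times against the mean. DESeq2's Wald test called 4 for the YPS128 response at 3 h and 2 for that of BY4743.

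Without the replicate block, 0 genes were called for the responses of BC187, YPS128 and BY4743 at 3 h and BY4743 at 30 min, 5 (8 with the block) between NCYC3290 and BY4743 unstressed, and 6 (10 with the block) between NCYC3290 and YPS128 unstressed. The unstressed counts include frames with few or no counts in a strain of the pair. In the edgeR fit to 34 libraries, 9 unstressed calls were lost and 1 was gained. Those lost included COB (adjusted p = 0.136) and AI2 (adjusted p = 0.0939) between BC187 and BY4743. ATP6 (adjusted p = 0.0693) and AI4 (adjusted p = 0.148) between NCYC3290 and BY4743 were also lost. No share of all genes is given for any alternative, so the counts in this section cannot be read against a background. A replicate block within each strain gave 0 for BC187 and YPS128 responses at 3 h. All 35 libraries gave 3 for the YPS128 response at 3 h, and leaving out BY4743 replicate 1 at 30 min gave 2 for it and 0 for the BY4743 response at 30 min. The cause was not tested.

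With 1 replicate left out, called genes ranged over 0 to 2 (BC187, 30 min), 0 to 4 (NCYC3290, 30 min), 2 to 5 (NCYC3290, 3 h), 0 to 1 (YPS128, 30 min) and 0 to 3 (BY4743, 30 min), and for responses against the mean over 0 to 0 (BC187, 3 h), 0 to 2 (YPS128, 3 h), 0 to 2 (BY4743, 30 min) and 0 to 1 (BY4743, 3 h). Over all alternatives of single-gene results, 3277 of 3484 stayed on their side of the threshold, though 248 that were not called changed sign; 156 lost a call, 43 gained one and 8 changed sign with a call. Depth limits BI2 and AI3, at 70 to 385 counts where detected.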

Other observations

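COX3, subunit 3 of cytochrome c oxidase and not among the 10 genes, was lower at 30 min in BC187 (-1.63), NCYC3290 (-1.59) and YPS128 (-0.95) and was at -0.07 in BY4743 (edgeR adjusted p = 0.770). At 3 h it was lower in BC187 (-1.55), NCYC3290 (-1.55) and YPS128 (-2.28) and at 0.31 in BY4743 (adjusted p = 0.192). The BY4743 response was above the mean of the 4 strains by 0.99 at 30 min (adjusted p = 3.02e-05) and by 1.58 at 3 h (adjusted p = 8.73e-08). On the TMM scale COX2, subunit 2, fell at 3 h in NCYC3290 (-0.57) and YPS128 (-1.36). Replacing TMM by library totals raised the median of all genes at 3 h by 0.58 in NCYC3290 and 0.76 in YPS128. The COX2 fall in NCYC3290 is no larger than that shift. Unstressed YPS128 was above BY4743 by 2.10 for COX3 and 1.08 for COX2.

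AI5_BETA, a further COX1 intron frame, had 0 counts in every NCYC3290 library, and SCEI, the frame of the 21S rRNA intron, had 0 in every NCYC3290 and YPS128 library. SCEI fell in BC187 at 30 min (-0.87) and 3 h (-0.96) and in BY4743 at 30 min (-1.26).

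Of 5977 nuclear genes, the 5 whose log2 CPM followed that of the summed COX1, COB, ATP6 and OLI1 most closely over 34 libraries were FLX1 (r = 0.887), VRG4 (0.873), EFT1 (0.869), RPL4B (0.859) and RPL1B (0.853), with Spearman's rho between 0.783 and 0.848. The median r over all these genes was -0.07. The libraries share strains, time points and the TMM scaling, so this is a description only.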
